A study of Mus musculus with 4 samples.

Results

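TGF-β signaling was followed through 10 genes of the 32285 listed for each tumor library. The 10 genes were taken by name as ligands, receptors and activators of the pathway: the ligands Tgfb1, Tgfb2, Tgfb3 and Inhba, the receptors Tgfbr1, Tgfbr2 and Tgfbr3, the latent TGF-β binding proteins Ltbp1 and Ltbp2, and the TGF-β-induced matrix gene Tgfbi. All 10 were present in every library. The tumors were grafts of KPC cells, a mouse line of pancreatic ductal adenocarcinoma, in the pancreas of C57BL/6 mice. Before grafting, every mouse was on a high-fat diet over 24 weeks. The labels give an age of 7 months, and the study's methods an older one. There was 1 scRNA-seq library per condition, each from tumor cell suspensions pooled by treatment.

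Pdgfrb-TK mice carry a thymidine kinase driven by the Pdgfrb promoter, so that ganciclovir (GCV) is toxic to their Pdgfrb-expressing cells, pericytes among them. They received GCV at 50 mg/kg (Pdgfrb-TK/GCV) or PBS (Pdgfrb-TK/PBS) over 25 days. C57BL/6 mice without the transgene received D-CAN at 30 mg/kg (D-CAN) or PBS (WT/PBS) over the same 25 days. D-CAN is a peptide that homes to adipose stromal cells and kills them. Neither model acts on cancer-associated fibroblasts (CAF) alone, and the PBS controls received neither agent. A condition is 1 library here, so no test was made and no p-value is given. The intervals in parentheses are exact at 95% and cover counting error only.

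TGF-β is secreted in a latent complex in which its propeptide is held by an LTBP protein such as LTBP1. Integrins or proteases release TGF-β from it. The ligand then joins TGFBR2, which activates TGFBR1 and through it SMAD2 and SMAD3, while betaglycan, the product of Tgfbr3, presents ligand and binds TGF-β2 with high affinity. Inhba encodes the subunit of activin A, a relative of TGF-β that signals through its own type II receptors to the same SMADs. In pancreatic cancer TGF-β is known for driving the matrix-producing program of myofibroblastic CAFs (myCAF), which is set apart from the inflammatory program (iCAF).

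Cells were assigned by markers, with 8 genes per class, at least 3 of them detected and a lead of at least 2 over any other class. In library order, which is always Pdgfrb-TK/GCV, then Pdgfrb-TK/PBS, then D-CAN, then WT/PBS, this gave 4223, 5192, 2216 and 3232 KPC tumor-marker cells. CAF-marker cells numbered 219, 414, 1167 and 1837, and macrophage-marker cells 1580, 396, 902 and 802. Between 37.6% and 46.1% of the cells of a library met no rule and were left ungated. Leiden clusters of all cells were named by the same marker lists. Those named KPC tumor held 3919 of 5664, 2796 of 3935, 3301 of 4425 and 2574 of 4912 ungated cells. The KPC tumor-marker cells may thus be only a part of the tumor cells. None of the 10 genes is among the markers. The libraries hold 84020317 to 155408336 unique molecular identifiers (UMIs), with a median of 3963.5 to 7393 per cell. Cells with more than 20% mitochondrial UMIs made up 4.48% to 29.3% of a library, most in D-CAN. Any pair of libraries shared 25 to 40 cell barcodes. Levels are given as CPM, the UMIs of a gene per 1000000 UMIs of its class and library. Pdgfrb in CAF-marker cells had 58.8 CPM with GCV against 216 CPM in the PBS library of that model, a fold of 0.273 (0.226 to 0.327). Dcn, which encodes the decorin that D-CAN binds, had 2860 CPM with D-CAN against 1333 CPM in WT/PBS, a fold of 2.14 (2.11 to 2.18). Over all CAF-marker cells, Dcn was thus not lower in the D-CAN library. In iCAF-marker cells, a subset described below, Dcn was 4592 CPM with D-CAN against 4799 CPM with PBS. In myCAF-marker cells it was 1267 against 1106 CPM. The part of subset makeup in the 2.14-fold was not tested. Pdgfrb over all CAF-marker cells was 242 CPM with D-CAN against 145 CPM in WT/PBS. The paper names nonglycanated decorin, a form that RNA counts do not show.

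The members fell into groups by the cells that held them. Among the gated classes, Ltbp2 and Tgfbr3 were mainly CAF genes, Ltbp1 was mainly a KPC tumor cell gene and Tgfbi mainly a macrophage gene. Tgfb1, Tgfbr1 and Tgfbr2 were found in every class with at least 20 cells in 3 libraries, apart from single libraries of few T cells. For Inhba and Tgfb2 the gated class with the largest share of UMIs changed between libraries. CAF-marker cells held 23.1%, 52.5%, 62.1% and 76.4% of the Tgfb2 UMIs in library order, and KPC tumor-marker cells 35.4%, 13.04%, 14.2% and 5.41%. Ungated cells held 34.6%, 28.3%, 14.2% and 15.4%. Such shares follow the number of cells in a class as well as the level per cell. In Pdgfrb-TK/GCV, Tgfb2 had 6.74 CPM in KPC tumor-marker cells and 125 CPM in CAF-marker cells. Levels are compared here within a gene, since UMIs of different genes are not captured alike.

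Tgfb1, the ligand best known from immune cells, lay between 185 and 283 CPM in macrophage-marker cells, with a median of 232.5 CPM over the 4 libraries. KPC tumor-marker cells, at 84.4 to 127 CPM, had the lowest median of the 8 classes compared, 94.9 CPM. The classes between them, endothelial cells (EC), B cells, neutrophils, CAFs, pericytes and T cells, overlapped with their neighbors in that order, and macrophages overlapped with EC, at 136 to 191 CPM. KPC tumor-marker cells still held 46.8%, 66.3%, 42.7% and 33.5% of the Tgfb1 UMIs in library order, beside 56.5%, 74.4%, 50.7% and 44.8% of all UMIs.

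Tgfb2, a ligand of mesenchymal cells, was found at 97.5 to 307 CPM in CAF-marker cells, at 106 to 216 CPM in pericyte-marker cells and at 33.6 to 109 CPM in EC. These 3 classes overlapped in order, and EC lay above all libraries of the other 5 classes, where Tgfb2 did not pass 10.7 CPM. Tgfb3 followed the same classes except EC. It stood at 32.6 to 102 CPM in pericytes and 43.4 to 69.1 CPM in CAFs, clear of the 7.21 to 23.7 CPM in macrophages. Ltbp2 was nearly confined to CAFs, at 112 to 209 CPM, with the next class, EC, at 0 to 24.2 CPM. CAF-marker cells held 55.2%, 72.4%, 90.7% and 87.1% of all Ltbp2 UMIs in library order.

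Among the receptors, Tgfbr3 was a gene of CAFs, at 126 to 266 CPM, and of EC, at 66.7 to 165 CPM, and did not pass 0.791 CPM in KPC tumor-marker cells. A mesothelial-marker class of 10, 18, 17 and 2 cells in library order was too small for these ranges. It had Tgfbr3 at 250 CPM in Pdgfrb-TK/GCV and 259 CPM in Pdgfrb-TK/PBS, from 32 and 33 UMIs, against 152 and 233 CPM in CAFs. In D-CAN it held 94 Tgfbr3 UMIs. Tgfbr2, the ligand-binding kinase, was at 194 to 502 CPM in CAFs, which overlapped with B cells, EC and T cells. KPC tumor-marker cells had the lowest median level of it, 43.6 CPM. Tgfbr1, the signaling kinase, had its highest median in macrophages, with 132 to 282 CPM, overlapping with the 140 to 166 CPM of CAFs.

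Ltbp1, which tethers latent TGF-β to the matrix, was at 142 to 183 CPM in KPC tumor-marker cells. This lay above every library of the next gated class, pericytes, at 63.9 to 113 CPM. KPC tumor-marker cells held 57.5%, 70.2%, 52.4% and 43.9% of its UMIs in library order, beside 56.5%, 74.4%, 50.7% and 44.8% of all UMIs. Ungated cells held 39.5%, 28.1%, 39.3% and 45.8% of its UMIs, beside 30.7%, 19.3%, 29.8% and 33.7% of all UMIs. In Pdgfrb-TK/GCV and Pdgfrb-TK/PBS the CAF-marker cells had 39.1 and 41.0 CPM of Ltbp1. The neutrophils of the same libraries had 42.5 and 57.2 CPM. The KPC markers summed to 295 and 1168 CPM in those CAFs and to 1118 and 1434 CPM in those neutrophils. Their part in these Ltbp1 values was not tested. Tgfbi, a secreted matrix protein, was at 368 to 659 CPM in macrophages and at most 99.8 CPM in neutrophils, the next class. Macrophage-marker cells held 64.0%, 46.9%, 72.5% and 58.6% of the Tgfbi UMIs in library order.

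Inhba was at 161 to 526 CPM in CAFs, and its CAF, neutrophil, macrophage and KPC ranges overlapped in that order. In WT/PBS, CAF-marker cells held 55.3% of its UMIs and KPC tumor-marker cells 12.0%. In D-CAN the shares were 11.2% and 37.4%, and ungated cells held 45.3%. The Pdgfrb-TK libraries had 51.4% (GCV) and 57.2% (PBS) of their Inhba UMIs in KPC tumor-marker cells and 3.60% and 5.19% in CAF-marker cells. Ungated cells held 39.6% and 33.9% in these libraries and 27.0% in WT/PBS. Of all UMIs, ungated cells held 30.7%, 19.3%, 29.8% and 33.7% in library order, and KPC tumor-marker cells 56.5%, 74.4%, 50.7% and 44.8%. These shares follow the number of cells in each class as well as the level per cell.

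**Figure D1:**
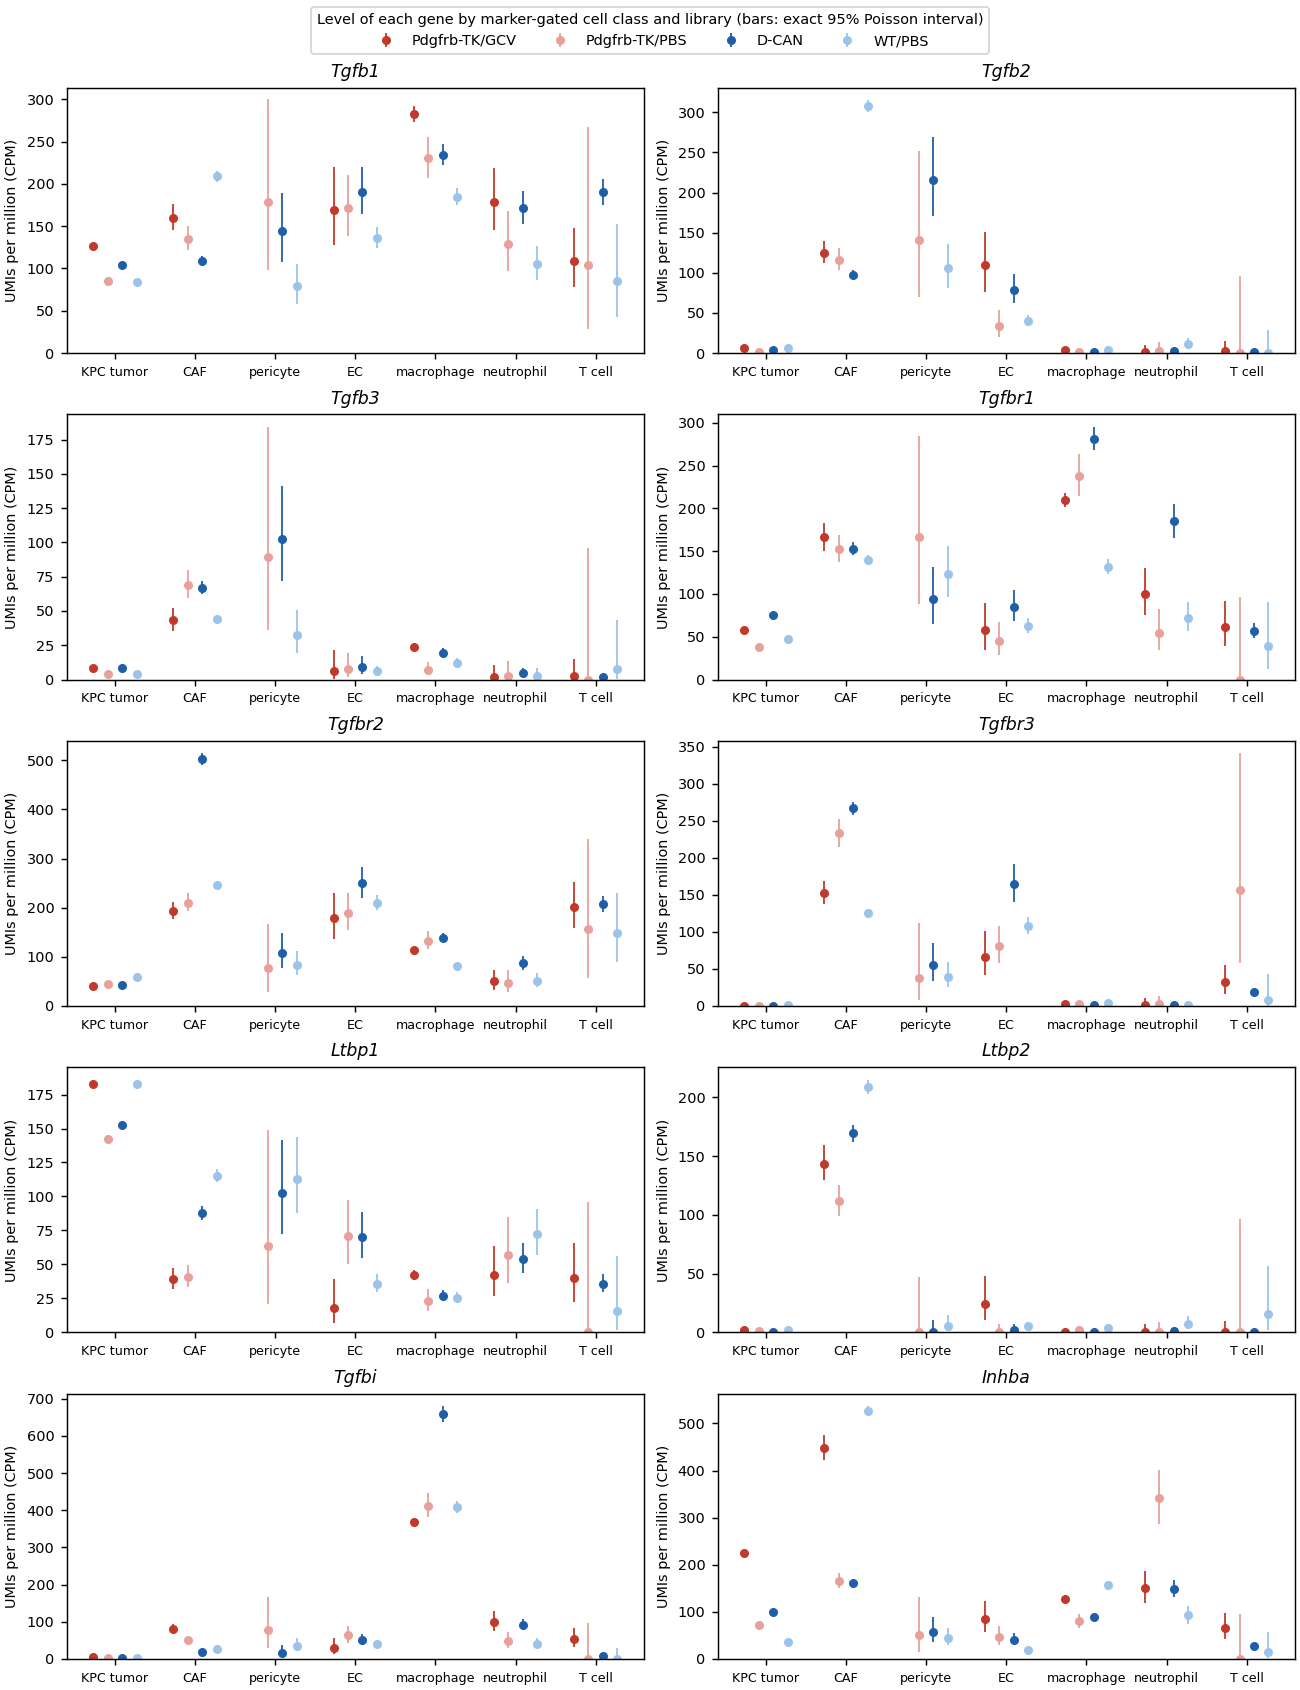
Level in CPM (linear axis from 0) of each of the 10 genes in 7 marker-gated cell classes; each point is 1 library and each bar its exact 95% Poisson interval, and a class with under 20 cells in a library is left out. Ltbp2 is high in CAFs only, at 112 to 209 CPM, Tgfbi in macrophages, at 368 to 659 CPM, and Ltbp1 in KPC tumor cells, at 142 to 183 CPM.

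**Figure D2:**
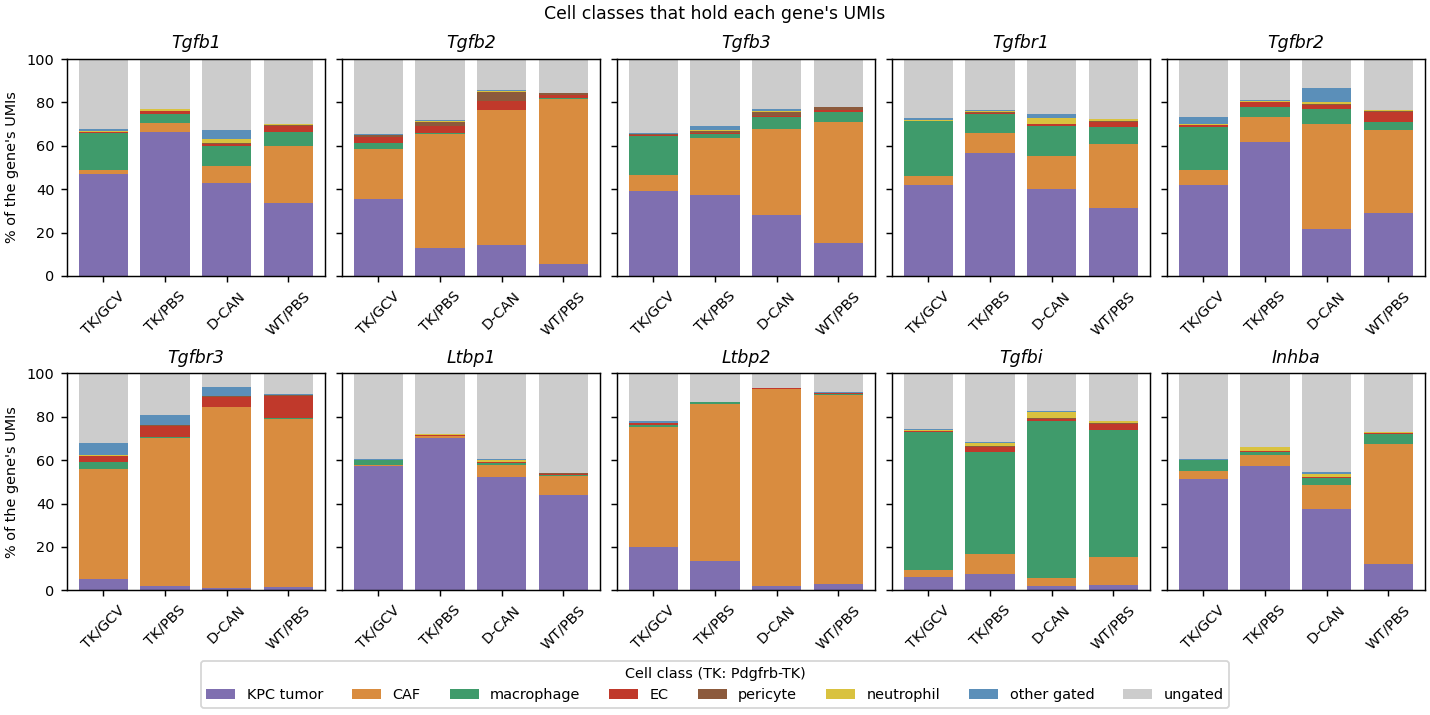
Percent of each gene's UMIs in a library (stacked bars, 0 to 100%) that lie in each cell class, with ungated cells in grey. CAFs hold 55.3% of the Inhba UMIs in WT/PBS and 11.2% in D-CAN, while macrophages hold 46.9% to 72.5% of the Tgfbi UMIs.

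Across class and library sums with at least 50 cells, 24 in all from 8 classes, the 10 genes were set against the 7345 genes that reached 50 CPM in at least 1 sum. These sums share libraries and classes, so the correlations of log2(CPM + 1) are descriptions. Tgfb2 was most like Serpinh1 (Pearson r = 0.96), the collagen chaperone HSP47, and Timp3 (r = 0.95), a metalloprotease inhibitor. Tgfb3 was most like C1ra (r = 0.91), Tgfbr3 like Tshz3 (r = 0.94) and Lrrc32 (r = 0.94), which encodes GARP, a docking protein for latent TGF-β. Inhba was most like Vegfa (r = 0.83), the endothelial growth factor, and P4hb (r = 0.76). For Tgfbi the closest was Lrp12 (r = 0.93), for Ltbp1 Tuft1 (r = 0.91), for Tgfbr1 Hexa (r = 0.85), for Tgfbr2 Slc1a5 (r = 0.87) and for Tgfb1 Capzb (r = 0.79). Ltbp2 was most like the olfactory receptor gene Olfr1033 (r = 0.97). Within the 10 genes, Tgfb2 and Tgfbr3 (r = 0.84), Tgfb3 and Ltbp2 (r = 0.79) and Tgfb2 and Ltbp2 (r = 0.79) were the most alike, and Ltbp1 and Tgfbi the least (r = -0.73).

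The first comparison asked how the genes differed in KPC tumor-marker cells after depletion of Pdgfrb-expressing cells. Of the 10 genes, 3 were at least 2-fold higher and 0 at least 2-fold lower in Pdgfrb-TK/GCV than in Pdgfrb-TK/PBS, where a gene counts on the log2(CPM + 1) scale with at least 20 UMIs in the libraries together. Over all 16597 genes tested in these cells, 3.96% were higher by this rule and 1.03% lower. The median log2 ratio was 0.61 over the 10 genes and 0.11 over all genes tested.

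Inhba stood at 225 CPM (221 to 228), 72.8 CPM (70.7 to 75.0), 99.0 CPM (96.7 to 101) and 36.2 CPM (34.8 to 37.7) in library order. The GCV library was the highest of the 4 and did not overlap with any other. Its fold over its PBS library was 3.09 (2.99 to 3.19), and this was the only value of 13 past 2-fold that stayed past it under each of the 13 alternative settings. After each cell was thinned to 2000 UMIs, 21.8%, 8.27%, 11.03% and 4.77% of KPC tumor-marker cells had an Inhba UMI in library order, and 48.2%, 18.7%, 30.01% and 21.5% without thinning. T cells, which should lack it, gave 7.89% (76 cells), 0% (4 cells), 1.34% (521 cells) and 3.45% (29 cells) after thinning. The median depth was 9757 to 23797 UMIs in the KPC tumor-marker cells and 1436 to 3642 UMIs in the T cells.

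Tgfb2 had 6.74 CPM (6.15 to 7.36), 1.15 CPM (0.901 to 1.45), 4.11 CPM (3.64 to 4.63) and 6.89 CPM (6.29 to 7.53) in library order. Pdgfrb-TK/PBS was the library that stood apart, and the fold of 5.85 (4.56 to 7.60) rests on its 72 UMIs. Against WT/PBS, which the same KPC line formed in mice without the transgene, the log2 ratio was -0.03. Neutrophils of WT/PBS held 10.7 CPM of Tgfb2, from 11 UMIs. The CAF markers summed to 411 CPM in those neutrophils and to 82.3 CPM in the KPC tumor-marker cells of WT/PBS. The part of background in that KPC level was not tested. Tgfbi stood at 5.86 CPM (5.32 to 6.45) in Pdgfrb-TK/GCV and at 1.58, 1.55 and 1.55 CPM in the others, a fold of 3.70 (2.97 to 4.65). The same GCV library had 53.1 CPM (32.4 to 81.9) in T cells, from 20 UMIs, and the macrophage markers summed to 167 CPM there. The part of background in the KPC level of Tgfbi was likewise not tested. The 8 macrophage markers, all detected, summed to 35.4 CPM in the KPC tumor-marker cells of Pdgfrb-TK/GCV and to 15.0 CPM in those of Pdgfrb-TK/PBS; the 8 CAF markers, all detected, summed to 25.6 and 38.0 CPM. Of the separate marker lists of inflammatory (iCAF) and myofibroblastic (myCAF) CAFs, the first summed to 44.0 and 27.8 CPM and the second to 95.9 and 22.6 CPM. Their part in these differences was not tested. With 10 CPM added to each side, Tgfb2 and Tgfbi were no longer past 2-fold, at log2 ratios of 0.59 and 0.45.

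The other 7 genes did not pass 2-fold by the rule. Tgfb3 stood at 8.36 CPM (7.70 to 9.05) with GCV against 3.90 CPM (3.43 to 4.43) with PBS, a fold of 2.14 (1.84 to 2.49), with a log2 ratio of 0.93 once 1 CPM was added. Tgfbr1 was 1.53-fold (1.46 to 1.61), Tgfb1 1.49-fold (1.44 to 1.54) and Ltbp1 1.28-fold (1.25 to 1.32) its level in the PBS library. Tgfbr2 was the one receptor below it, at 0.878-fold (0.833 to 0.925). Tgfbr3 and Ltbp2 stayed below 2.5 CPM in the tumor cells of every library.

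In the same cells D-CAN was set against WT/PBS. Only Inhba passed 2-fold, so that 1 of 10 genes was higher and 0 lower, beside 8.68% and 2.12% of all 16894 genes tested. Its fold was 2.73 (2.61 to 2.86), from the levels given above. Requiring 4 of 8 markers gave a log2 ratio of 0.90, under 2-fold, and Pdgfrb-TK/PBS as control 0.44. In these cells the CAF markers summed to 49.96 CPM with D-CAN against 82.3 CPM with PBS and the myCAF markers to 28.4 against 50.8 CPM, while the iCAF markers summed to 123.5 against 27.4 CPM and the acinar markers to 169.7 against 32.0 CPM. Their part in the Inhba value was not tested. Tgfb3 was 8.65 CPM (7.95 to 9.39) against 3.84 CPM (3.39 to 4.33), a fold of 2.25 (1.94 to 2.62) and a log2 ratio of 0.996 that lay just under the limit. The PBS libraries had Tgfb3 at like levels, with a fold of 1.02 (0.851 to 1.21) between them. Tgfbr1 was 1.605-fold (1.54 to 1.68) and Tgfbr2 0.699-fold (0.666 to 0.734) its PBS level. Tgfb1 was 1.24-fold, Ltbp1 0.837-fold and Tgfb2 0.597-fold that level, and the counting interval of the Tgfbi ratio was 0.756 to 1.32. The 2 kinases of the receptor thus lay on opposite sides of their controls in the tumor cells of both treated libraries. The median log2 ratio was -0.08 over the 10 genes and 0.14 over all genes tested.

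**Figure D3:**
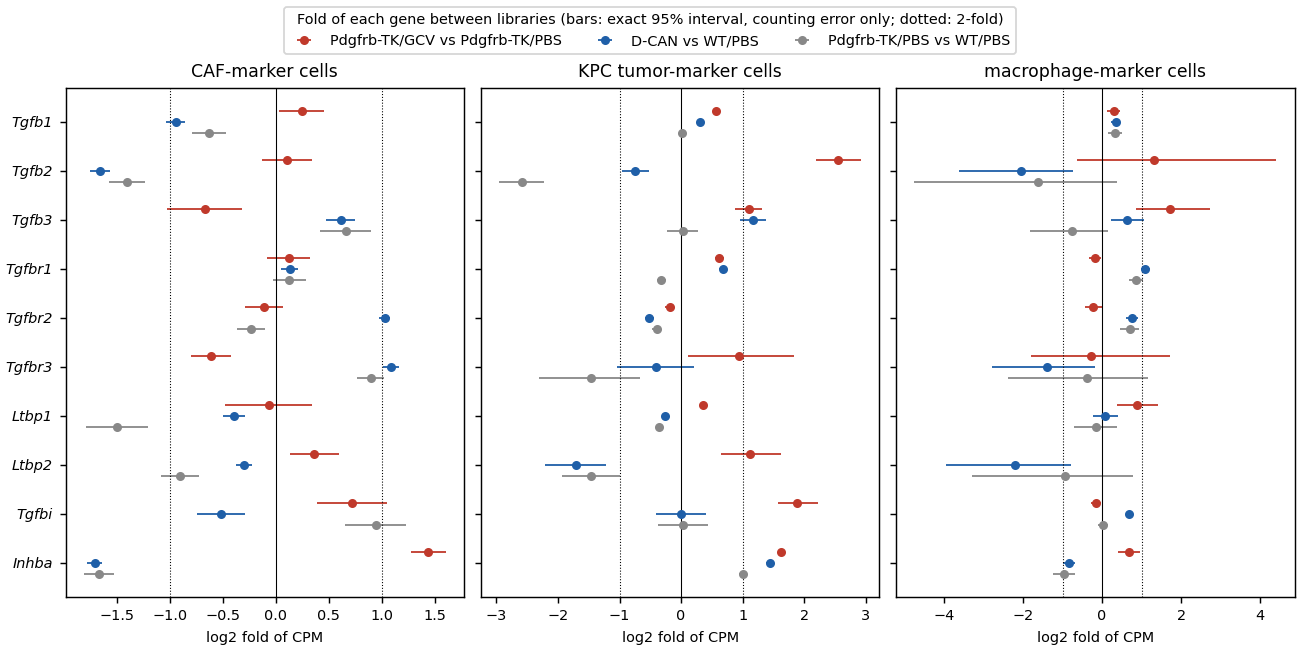
Log2 fold of CPM between libraries for each gene in CAF-, KPC tumor- and macrophage-marker cells; points are folds without a pseudocount, bars exact 95% intervals of counting error, dotted lines 2-fold, and genes with under 20 UMIs are left out. Grey points compare the PBS libraries with each other. In CAFs, Inhba is 2.70-fold its control with GCV and 0.306-fold with D-CAN, and the PBS libraries differ by 0.315-fold.

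Among CAF-marker cells with GCV, 1 of the 10 genes was at least 2-fold higher than in Pdgfrb-TK/PBS and 0 were lower, beside 2.88% and 6.04% of the 11262 genes tested. The gene was Inhba, at 448 CPM (423 to 475) against 166 CPM (150 to 183), a fold of 2.70 (2.41 to 3.03). Its level was 161 CPM (154 to 169) in the D-CAN library, and WT/PBS had 526 CPM (517 to 536). The levels thus formed a low pair, Pdgfrb-TK/PBS and D-CAN, and a high pair, Pdgfrb-TK/GCV and WT/PBS. Each pair holds 1 treated library and 1 PBS library. With 1 library per condition, the part of treatment and of model in these levels was not tested.

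The GCV value of Inhba turned sign with WT/PBS as control, to a log2 ratio of -0.23, and was 0.94 without cells that had 3 markers of a second class. The KPC markers in these CAFs summed to 295 CPM with GCV (7 of 8 detected) against 1168 CPM with PBS (7 of 8), the macrophage markers to 104 CPM (7 of 8) against 39.0 CPM (6 of 8). The part of the macrophage RNA was not tested; the macrophages of Pdgfrb-TK/GCV had 128 CPM of Inhba (122 to 134). Tgfbi was 81.7 CPM (70.9 to 93.6) against 49.8 CPM (41.4 to 59.4), a fold of 1.64 (1.31 to 2.07), in these cells, and 99.8 CPM in the neutrophils of Pdgfrb-TK/GCV. Tgfbr3 was 152 CPM (138 to 168) against 233 CPM (214 to 253), 1.53-fold (1.34 to 1.74) lower, and Tgfb3 1.59-fold (1.25 to 2.04) lower. With WT/PBS as control, Tgfbr3 turned sign to a log2 ratio of 0.28, and Tgfb3 was at -0.01. Tgfb1, Tgfb2, Tgfbr1, Tgfbr2, Ltbp1 and Ltbp2 were between 0.924-fold and 1.29-fold their level in Pdgfrb-TK/PBS. The median log2 ratio was 0.11 over the 10 genes and -0.13 over all genes tested.

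In CAF-marker cells of D-CAN, 2 of the 10 genes were at least 2-fold higher than in WT/PBS and 2 lower, beside 11.4% and 6.72% of the 15407 genes tested. Both higher genes were receptors. Tgfbr2 stood at 194 CPM (177 to 212), 210 CPM (193 to 229), 502 CPM (490 to 515) and 247 CPM (240 to 253) in library order. D-CAN was above all others, by 2.04-fold (1.96 to 2.11) over WT/PBS and by a log2 ratio of 1.25 over Pdgfrb-TK/PBS. The log2 ratio to WT/PBS was 0.82, under 2-fold, when cells were weighted equally or thinned. Tgfbr3 stood at 266 CPM (257 to 276) with D-CAN against 126 CPM (121 to 130) with PBS, 2.12-fold (2.02 to 2.23). Its level in Pdgfrb-TK/PBS, 233 CPM, was close to that of D-CAN, with a log2 ratio of 0.19.

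The lower genes were the ligands Inhba, 3.27-fold (3.11 to 3.43) lower, and Tgfb2, 3.15-fold (2.96 to 3.36) lower. Tgfb2 stood at 125 CPM (112 to 140), 117 CPM (103 to 131), 97.5 CPM (92.0 to 103) and 307 CPM (300 to 315) in library order, so WT/PBS alone was high. With Pdgfrb-TK/PBS as control the log2 ratios were -0.04 for Inhba and -0.26 for Tgfb2, and both calls thus rest on the WT/PBS library. Tgfb1 was 1.92-fold (1.81 to 2.05) lower, just short of the limit, and Tgfb3 1.53-fold (1.39 to 1.68) higher. Tgfbr1, Ltbp2, Ltbp1 and Tgfbi were 1.09-fold, 0.811-fold, 0.762-fold and 0.700-fold their level in WT/PBS. The median log2 ratio was -0.34 over the 10 genes and 0.12 over all genes tested. Cells with over 20% mitochondrial UMIs were 20.8% of the CAF-marker cells in D-CAN and 5.77% in WT/PBS. Without them the log2 ratios of Inhba, Tgfbr2 and Tgfbr3 were -1.68, 1.07 and 1.12.

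CAF-marker cells were then split by iCAF markers (among them Clec3b, Il6 and Cxcl12) and myCAF markers (among them Acta2, Tagln and Postn). The iCAF-marker share of CAF-marker cells was 35.6%, 34.1%, 50.1% and 6.70% in library order, and the myCAF-marker share 49.8%, 50.97%, 35.0% and 84.7%. D-CAN and WT/PBS therefore differed in makeup, while the Pdgfrb-TK libraries were alike. Several members differed between the subsets within each library. Tgfbr3 was at 239 to 495 CPM in iCAF-marker cells and 94.0 to 124 CPM in myCAF-marker cells. Tgfb1 had the opposite order, at 30.8 to 83.0 CPM and 184 to 221 CPM, as had Ltbp2, at 21.8 to 126 CPM and 167 to 333 CPM. The ranges of these 3 genes did not overlap between the subsets. Inhba was higher in the myCAF-marker cells of each library, at 712, 253, 318 and 547 CPM against 97.7, 38.3, 26.2 and 349 CPM.

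Within the subsets, the differences of D-CAN from WT/PBS took other sizes than over all CAF-marker cells. Inhba was 13.3-fold (11.02 to 16.1) lower in iCAF-marker cells and 1.72-fold (1.64 to 1.81) lower in myCAF-marker cells. Tgfbr3 was 1.74-fold (1.54 to 1.97) and 1.05-fold (0.963 to 1.14), so neither subset reached the 2.12-fold of the whole class. Tgfbr2 was higher in both, by 2.08-fold (1.86 to 2.33) and 1.73-fold (1.64 to 1.81). Tgfb2 was lower in both, by 2.603-fold (2.25 to 3.01) and 2.94-fold (2.70 to 3.20). Tgfb3 was at least 2-fold higher in both, by 3.41-fold (1.91 to 6.73) on 12 UMIs in WT/PBS and by 2.20-fold (1.98 to 2.44). Ltbp2 differed in direction, 5.76-fold (4.53 to 7.34) lower in iCAF-marker cells and 1.54-fold (1.46 to 1.63) higher in myCAF-marker cells. The WT/PBS values of the iCAF-marker subset come from 123 cells. In that subset the myCAF markers summed to 1908.5 CPM in WT/PBS against 581 CPM in D-CAN. Inhba and Ltbp2 were both higher in myCAF-marker cells. The part of the myCAF markers in the lower iCAF values of these 2 genes was not tested.

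With GCV, Inhba was 2.55-fold (1.61 to 4.14) in iCAF-marker cells and 2.81-fold (2.49 to 3.17) in myCAF-marker cells, close to the 2.70-fold of the whole class. Tgfbi was 2.96-fold (1.86 to 4.86) in iCAF-marker cells, from 105 CPM against 35.4 CPM, and 1.38-fold (1.02 to 1.89) in myCAF-marker cells. The macrophage markers summed to 217 against 32.6 CPM in these iCAF-marker cells and to 61.8 against 43.6 CPM in the myCAF-marker cells, and their part in the Tgfbi values was not tested. Tgfbr3 was 1.78-fold (1.49 to 2.13) lower in iCAF-marker cells and 0.902-fold (0.710 to 1.15) its control in myCAF-marker cells. The iCAF-marker cells numbered 78 in Pdgfrb-TK/GCV and 141 in Pdgfrb-TK/PBS.

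**Figure D4:**
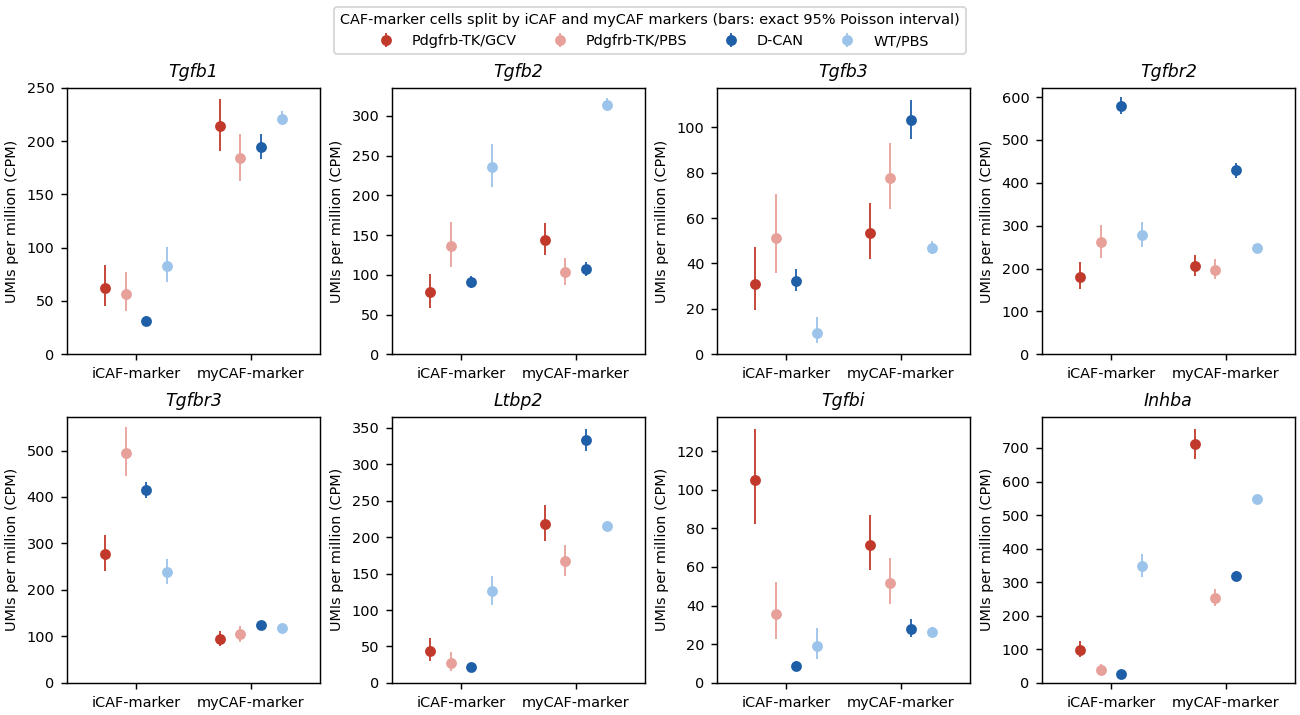
CPM (linear axis from 0) of 8 of the genes in iCAF- and myCAF-marker cells of each library, with exact 95% Poisson intervals. Tgfbr3 lies at 239 to 495 CPM in iCAF-marker and 94.0 to 124 CPM in myCAF-marker cells, and Ltbp2 and Tgfb1 are higher in myCAF-marker cells.

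In macrophage-marker cells, 9 of the 10 genes had enough UMIs for the GCV comparison, all but Ltbp2. One was higher and 0 were lower, beside 7.2% and 3.01% of 12758 genes tested. Tgfb3 had 23.7 CPM (20.999 to 26.6), 7.21 CPM (3.60 to 12.9), 19.1 CPM (15.8 to 22.9) and 12.3 CPM (9.75 to 15.3) in library order. The fold of 3.28 (1.81 to 6.65) rests on 11 UMIs in Pdgfrb-TK/PBS, and against WT/PBS the log2 ratio was 0.89, under 2-fold. Summed KPC and CAF markers were lower in these macrophages with GCV than with PBS, at 527 against 1153 CPM and 38.0 against 61.6 CPM. The iCAF markers, at 157 against 80.6 CPM, and the myCAF markers, at 30.9 against 15.7 CPM, were higher, as Tgfb3 was, and their part was not tested. Tgfb1 was 1.23-fold (1.10 to 1.37), and Tgfbr1 and Tgfbi 0.881-fold (0.789 to 0.987) and 0.893-fold (0.821 to 0.973). Inhba was 1.599-fold (1.33 to 1.94) and Ltbp1 1.83-fold (1.30 to 2.66), and Tgfbr2 was 0.860-fold (0.741 to 1.001). The median log2 ratio was 0.06 over all 10 genes, with the untested Ltbp2 at -0.98, and -0.01 over all genes tested. Among the 9 members tested, Tgfb1 held the middle value, 0.29.

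With D-CAN, 1 of 10 genes was higher and 2 were lower in macrophage-marker cells, beside 13.3% and 4.23% of 12613 genes tested. Tgfbr1 stood at 210 CPM (202 to 218), 238 CPM (214 to 264), 282 CPM (268 to 295) and 132 CPM (123 to 141) in library order. WT/PBS alone was low, the fold of D-CAN over it was 2.14 (1.97 to 2.32), and over Pdgfrb-TK/PBS the log2 ratio was 0.24. Tgfbi was highest in D-CAN, with 368 CPM (357 to 379), 412 CPM (381 to 446), 659 CPM (639 to 679) and 408 CPM (393 to 424) in library order. The 3 other libraries lay close together, and D-CAN was 1.61-fold (1.54 to 1.70) above WT/PBS and above Pdgfrb-TK/PBS by a log2 ratio of 0.68. Tgfb2 and Ltbp2 were the lower genes, at 0.972 and 0.810 CPM against 4.05 and 3.74 CPM. Neither stayed past 2-fold with Pdgfrb-TK/PBS as control, at log2 ratios of -0.23 and -0.71, or with 10 CPM added, at -0.36 and -0.35. With a lead of 1 marker Ltbp2 was at -0.23, and after thinning Tgfb2 was at -0.68. CAF markers in these macrophages summed to 122 CPM (8 of 8 detected) with D-CAN against 195 CPM (7 of 8) with PBS, the myCAF markers to 33.2 against 81.2 CPM and the iCAF markers to 201 against 169 CPM, and their part in these 2 values was not tested. Tgfb1, Tgfb3 and Tgfbr2 were 1.27-fold, 1.55-fold and 1.68-fold their level in WT/PBS, and Inhba was 0.563-fold (0.506 to 0.625). The median log2 ratio was 0.21 over the 10 genes and 0.24 over all genes tested.

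The PBS libraries differed from each other as well. Of the 10 genes, Pdgfrb-TK/PBS had 0 at least 2-fold higher than WT/PBS in each of the 3 classes. Inhba in KPC tumor-marker cells lay just under the limit, at 72.8 against 36.2 CPM, a fold of 2.01 (1.91 to 2.11) and a log2 ratio of 0.99 once 1 CPM was added. In KPC tumor-marker cells 1 was lower, Tgfb2, beside 4.33% higher and 3.37% lower of all genes tested. In CAFs 3 were lower, Inhba by 3.17-fold (2.88 to 3.51), Ltbp1 by 2.81-fold (2.31 to 3.47) and Tgfb2 by 2.64-fold (2.34 to 2.98), beside 9.81% higher and 9.58% lower of all genes. In macrophages 1 was lower, Tgfb2, from 2 UMIs, beside 14.2% and 9.02%. The difference of Inhba between these untreated libraries in CAFs is of the size of the treatment differences.

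Other genes of the pathway were taken from a list of 27, with latent complex genes, activators, related receptors, activin binding proteins, SMADs and target genes. In KPC tumor-marker cells of Pdgfrb-TK/GCV, 5 of the 26 tested were at least 2-fold higher and 0 lower, beside 3.96% and 1.03% of all genes tested. Thbs1, whose product thrombospondin 1 activates latent TGF-β, was 4.70-fold (4.42 to 5.01), from 91.1 CPM against 19.4 CPM. Itgb6, a chain of the activating integrin αvβ6, was 2.22-fold (1.997 to 2.47). Fst and Fstl3, which encode the activin-binding proteins follistatin and follistatin-like 3, were 3.50-fold (3.12 to 3.92) and 2.74-fold (2.44 to 3.09). The target gene Ccn2 was 2.29-fold (2.21 to 2.36), from 182 CPM against 79.6 CPM. Inhba and the genes of its binding proteins were thus higher in the same cells. With D-CAN 1 of 27 was higher in these cells, the inhibitory SMAD gene Smad6 at 2.98-fold (2.69 to 3.31), and 2 were lower, Fst by 2.09-fold (1.94 to 2.25) and Fbn1 by 2.84-fold (2.27 to 3.58), beside 8.68% and 2.12% of all genes. Between the PBS libraries, 0 of 27 were higher and 3 lower in Pdgfrb-TK/PBS in these cells, beside 4.33% and 3.37%.

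In CAF-marker cells with GCV, 0 of 24 were higher and 1 was lower, beside 2.88% and 6.04% of all genes. Eng, which encodes the coreceptor endoglin, was 3.29-fold (2.01 to 5.57) lower, from 22 and 71 UMIs. The EC markers in these CAFs summed to 24.9 CPM with GCV against 58.7 CPM with PBS, and their part was not tested. With D-CAN, 2 of 27 were higher and 4 lower in CAFs, beside 11.4% and 6.72%. Eng was 4.73-fold (4.31 to 5.19) and Acvrl1, the type I receptor ALK1, 3.22-fold (2.83 to 3.67). In these CAFs the EC markers summed to 40.0 CPM with D-CAN against 83.9 CPM with PBS and the myCAF markers to 3409 against 6245 CPM. The pericyte markers summed to 187 against 106 CPM and the iCAF markers to 5810 against 894 CPM. The part of these lists in the Eng and Acvrl1 values was not tested. Fst was 4.46-fold (4.14 to 4.82) lower, Ccn2 3.17-fold (3.05 to 3.29), Bambi, a decoy receptor gene, 2.97-fold (2.36 to 3.77) and the repressor gene Tgif1 2.22-fold (1.96 to 2.51). Between the PBS libraries, 0 of 26 were higher and 6 lower in CAFs, beside 9.81% and 9.58%.

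In macrophage-marker cells with GCV, 7 of 24 were higher and 0 lower, beside 7.2% and 3.01% of all genes. The inhibitory SMAD gene Smad7 was 2.71-fold (2.09 to 3.57) and Ccn2 2.40-fold (1.62 to 3.71). The other 5, Itgb6, Itgb8, Bambi, Fstl3 and Smad6, had at most 4 UMIs each in Pdgfrb-TK/PBS. With D-CAN, 3 of 25 were higher and 6 lower, beside 13.3% and 4.23%. Acvrl1 was 4.46-fold (3.40 to 5.92), Eng 2.68-fold (1.92 to 3.80) and Nrros, which encodes a docking protein of latent TGF-β1 in myeloid cells, 2.35-fold (2.10 to 2.64). The EC markers in these macrophages summed to 72.9 CPM with D-CAN against 27.9 CPM with PBS, and their part was not tested. Thbs1 stood at 470 CPM against 1331 CPM, 2.83-fold (2.71 to 2.95) lower, and the integrin gene Itgav was 2.28-fold (2.13 to 2.43) lower. Fst, Ccn2, Itgb8 and Lrrc32 were the other lower genes, all at most 12.0 CPM in D-CAN. Between the PBS libraries, 0 of 25 were higher and 9 lower in macrophages, beside 14.2% and 9.02%.

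**Figure D5:**
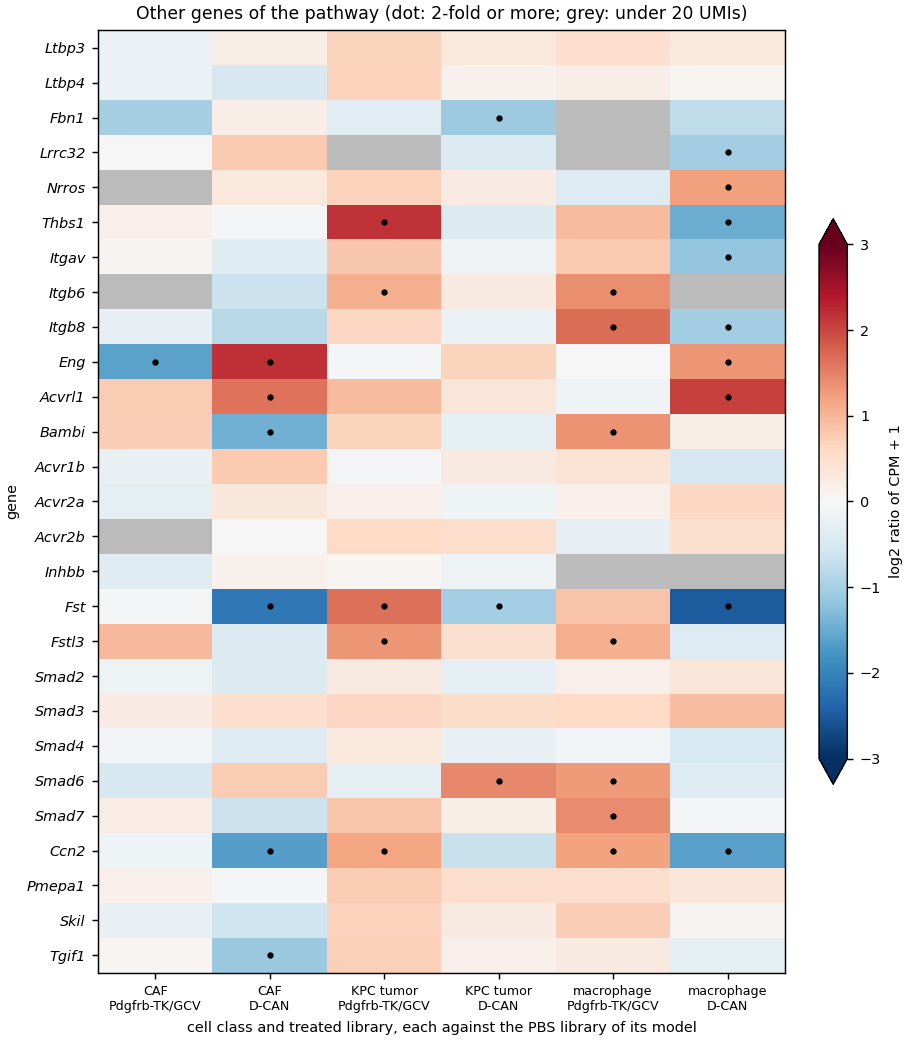
Log2 ratio of CPM + 1 (color, from -3 to 3) of the 27 other pathway genes in 3 cell classes, each treated library against the PBS library of its model; a dot marks at least 2-fold and grey under 20 UMIs. Fst and Ccn2 are higher in KPC tumor-marker cells with GCV and lower in CAF-marker cells with D-CAN.

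In mm10 (GRCm38), Tgfb1 lies at chr7:25687002-25705077, Tgfb2 at chr1:186622792-186705989, Tgfb3 at chr12:86056745-86079041 and Inhba at chr13:16011851-16031621. Tgfbr1 lies at chr4:47353222-47414931, Tgfbr2 at chr9:116084293-116175360 and Tgfbr3 at chr5:107106570-107289629. Ltbp1 lies at chr17:75005568-75392512, Ltbp2 at chr12:84783212-84876532 and Tgfbi at chr13:56609523-56639562. Tgfbr3 overlaps with Gm43422, Gm43423 and Gm42900 and Ltbp1 with Gm6276 on the same strand, where UMIs of the pair cannot be told apart. Tgfb2, Tgfb3, Tgfbr3, Ltbp2 and Inhba overlap with genes on the other strand.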

How the data were processed

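The authors deposited raw counts of UMIs for each gene in each cell, with empty droplets already removed. The study's methods name Cell Ranger 3.1.0 and mm10, the file headers version 7.0.0, and the submitters' notes STAR 2.6. The labels' extraction text describes nuclei of another tissue, so libraries were matched by their titles. A minimum of 200 genes per cell removed 0, 26, 608 and 30 cells in library order. Doublets were not removed. Cells with more than 10% of UMIs on acinar markers were set apart first. UMIs were summed per class and library (numpy 2.4.6, scipy 1.17.1, scanpy 1.11.5) and ratios taken on log2(CPM + 1), with exact Poisson, conditional binomial and Clopper-Pearson intervals. Scripts were tested on simulated data. The genes, lists, markers and tests were chosen with earlier results of these data known. One gene of the pathway list is not reported here and was left out of its counts. Pathway genes are named where at least 2-fold, and like genes as the 3 with the highest r. The 5 extra features of the D-CAN and WT/PBS libraries were not used. In library order, 9.63%, 9.95%, 10.6% and 14.6% of cells lay near the marker limits. Gene positions are from GENCODE M21.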

Additional observations from a re-analysis of the deposited data

Results flagged for a closer look

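Inhba in CAF-marker cells moved in opposite directions in the models, with a log2 ratio of 1.43 for Pdgfrb-TK/GCV over Pdgfrb-TK/PBS and -1.70 for D-CAN over WT/PBS. The difference between these ratios was not tested, since each condition is 1 library. The level was 166 CPM in one PBS library and 526 CPM in the other.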

How the results depend on the processing

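Of the 13 values past 2-fold, 11 kept their sign under all 13 alternatives, and 1, Inhba in KPC tumor-marker cells with GCV, stayed past 2-fold under all. Among these alternatives, dropping the minimum of UMIs cannot change a ratio. It could change a count only in macrophage-marker cells with GCV, where a member was untested. With the controls of the models exchanged, Inhba in CAF-marker cells with GCV reversed to -0.23 (log2) and Tgfb2 in KPC tumor-marker cells with GCV to -0.028. Of 78 recomputed counts of members past 2-fold, 60 stayed within 1.5 times and 18 did not. For CAF-marker cells with GCV (1 member), the count was 0 without cells with 3 markers of a second class, 3 with the other control and 2 after thinning to 2000 UMIs. For KPC tumor-marker cells with GCV (3), it was 1 at a pseudocount of 10 CPM. For KPC tumor-marker cells with D-CAN (1), it was 0 with 4 of 8 markers and 2 with at least 500 genes per cell, a margin of 1 marker, no cells with markers of a second class, the mean of each cell's CPM or thinning. For macrophage-marker cells with GCV (1), it was 3 with a margin of 1 marker, 2 without cells with markers of a second class, with the mean per cell or thinned, and 0 at a pseudocount of 10 CPM. For macrophage-marker cells with D-CAN (3), it was 1 with the other control, 1 at a pseudocount of 10 CPM and 5 with cells of the same class by markers and by Leiden cluster, a setting added after the data were seen. The cause of these moves was not tested. In CAF-marker cells with D-CAN (4) the count stayed within 1.5 times, but not its members: with the other control Inhba, Tgfb2 and Tgfbr3 were at -0.04, -0.26 and 0.19 (log2), and Ltbp1 (1.08) and Tgfbi (-1.41) were past 2-fold instead. No paired analysis was possible because each condition has 1 library. Levels under 10 CPM lie in the range of classes that should lack the gene, and for Inhba that range reached higher. T cells had Inhba at 0 to 66.3 CPM, a range that includes the 36.2 CPM of KPC tumor-marker cells in WT/PBS. The part of background in that level was not tested. The intervals cover neither free RNA nor differences between tumors.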

Other observations

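Inhba was also found in neutrophil-marker cells, at 150 CPM (119 to 186), 341 CPM (287 to 401), 148 CPM (131 to 167) and 92.6 CPM (74.9 to 113) in library order. Pdgfrb-TK/PBS was the highest library there, while Pdgfrb-TK/GCV was the highest in KPC tumor-marker cells. Only 13.1% of its neutrophils had an Inhba UMI, from 143 UMIs in 290 cells.

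In EC, Tgfb2 stood at 109 CPM (76.4 to 151), 33.6 CPM (19.9 to 53.2), 78.9 CPM (62.5 to 98.3) and 40.0 CPM (33.5 to 47.4) in library order. Both treated libraries lay above both PBS libraries, and the intervals did not overlap between treated and PBS. The difference was past 2-fold with GCV, at 3.24-fold (1.79 to 6.07), and just under it with D-CAN. Also past 2-fold in EC with GCV, but lower, were Ltbp1 at 0.256-fold (0.0885 to 0.610) and Tgfbi at 0.477-fold (0.210 to 0.987). In EC, CAF markers summed to 515, 149, 226 and 305 CPM in library order, myCAF markers to 136, 54.2, 634 and 172 CPM and iCAF markers to 655, 396, 397 and 371 CPM. The myCAF and iCAF lists were thus higher in each treated library than in its own control, as Tgfb2 was. The CAF list was higher with GCV and lower with D-CAN than in the control. So were the pericyte markers, at 724, 641, 330 and 360 CPM in library order. The part of these lists was not tested. The EC numbered 47, 134, 98 and 393, and these differences have no replicate check.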
